A study of Mus musculus with 26 samples.

Results

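Tcfl5 is 1 of 26264 gene symbols with RNA read counts in bone-forming cells (osteoblasts) grown from the femur of mice. It was chosen by its own measured counts, which were higher in both groups that lack the CxxC domain of Kdm2b than in the groups they were set against. Those 2 contrasts, CKO-YOUNG against CON-YOUNG and CKO-OLD against OLD, are therefore given as descriptions without a test, as is the difference between them. Other contrasts are tested, and where they hold groups whose values chose the gene, this is said beside them. The RNA side of the series holds 18 libraries in 6 groups of 3, and the other 8 samples, CUT&Tag libraries of the histone mark H2AK119ub1, are not analysed here. YOUNG and OLD cells were taken at 3 months and at 18 months from C57BL/6J animals. The knockout groups, CKO-YOUNG and CKO-OLD, came from Kdm2b fl/fl mice with Ocn-cre and the Ai14 reporter, in which Cre is driven by the osteocalcin promoter and so acts in mature osteoblasts, and CON-YOUNG came from mice with Ocn-cre and Ai14 alone. CON-OLD-iBP is an old control whose title carries iBP, which is not spelled out, and the labels give no age in months for the CON and CKO groups of the RNA libraries. No untreated old control of the Cre line is among the groups analysed here, so OLD, which carries neither Cre nor reporter, stood in for it. All cells were grown in medium with fetal bovine serum. Whether replicates are separate animals or cultures is not labelled, so the tests below weigh differences against a spread between libraries that may be only technical.

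Tcfl5 encodes a basic helix-loop-helix transcription factor, a class of proteins that bind short E-box sequences in DNA as pairs. It is best known from the testis, where it is made in spermatocytes and is needed for sperm formation. Kdm2b brings the Polycomb complex PRC1.1 to DNA through its CxxC zinc finger, which binds CpG that carry no methyl group, and PRC1.1 places ubiquitin on histone H2A at lysine 119, a mark that goes with low expression. The promoter of Tcfl5 is shown because CpG are what the deleted domain binds. RefSeq places the gene on chromosome 2, and the 250 bases before its start site lie at chr2:180642692-180642941 on the minus strand of GRCm38.p6, an older build than the mm39 named for the counts. They read 5′ to 3′, with each CpG in capitals:

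Tcfl5: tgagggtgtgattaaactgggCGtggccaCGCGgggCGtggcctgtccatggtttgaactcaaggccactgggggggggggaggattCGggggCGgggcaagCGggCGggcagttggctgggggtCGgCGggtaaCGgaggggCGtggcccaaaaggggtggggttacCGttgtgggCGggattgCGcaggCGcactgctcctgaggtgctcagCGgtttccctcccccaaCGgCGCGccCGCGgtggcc

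The stretch held 22 CpG and was 70.4% G and C. Over the 32851 promoters of the same length and table, the median was 6 CpG (quartiles 2 and 16), and 85.2% of them held fewer than Tcfl5. CpG stood at 0.78 of the number expected from the C and G content, against a median of 0.37. CACGCG, a relative of the E-box, was searched on both strands and occurred 1 time, with its first base 223 bases before the start, and 7.62% of all promoters held it. CACGTG, the standard E-box, was not found in this window and occurred in 6.02% of promoters. GGGCGG, the GC box bound by Sp1, occurred 3 times and was present in 32.7% of promoters. CCAAT and TATAAA were not found, and 33.8% and 12.4% of promoters held them. No binding was examined, and the H2AK119ub1 libraries of the series were not analysed here, so these letters are a description only. Tmem132e, Itpka, Ppp1r14a, Trank1 and Celsr2, genes named below for patterns near that of Tcfl5 and matched in the table, held 28, 26, 18, 30 and 32 CpG.

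**Figure D1:**
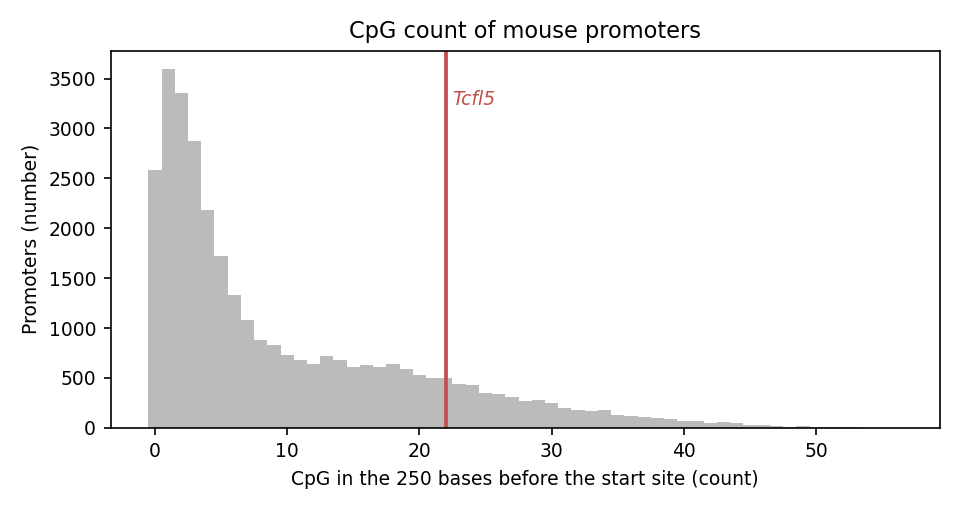
Number of mouse promoters (vertical axis) by the count of CpG in the 250 bases before the start site (horizontal axis), from the RefSeq promoter table of GRCm38.p6. The line marks the 22 CpG of Tcfl5, above the upper quartile of 16.

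The libraries did not part by group alone. Libraries held 46272076 to 77698781 counts. The nuclear RNA Malat1 took 0.0296% to 0.0435% of counts in 8 libraries (YOUNG 1 and 2, OLD 1 and 3, CON-YOUNG 1 and 2, CKO-YOUNG 1 and 2) and 0.0957% to 0.223% in the other 10. Of the low ones, YOUNG 1 and 2 and OLD 1 and 3 (set 1) had Xist, the RNA of the inactive X chromosome, between 391 and 481 CPM (CPM, counts scaled to a library of 1000000) and the Y-linked gene Ddx3y at 0. The remaining low libraries (set 2) had 76.2 to 91.8 CPM of Ddx3y. In the libraries high in Malat1 (set 3) Ddx3y stood at 21.3 to 76.5 CPM, and CKO-YOUNG 3 alone among them had Xist, at 372 CPM. CKO-YOUNG 3 thus held both Xist and Ddx3y (21.3 CPM), as no other library did, and whether its label is right was not tested. Values within set 3 that use CKO-YOUNG rest on this library. OLD 1 and OLD 3 were the closest pair of all libraries (Spearman correlation over genes 0.995) and were kept as separate samples. Col1a1 and Sparc, matrix genes of osteoblasts, were at 2910 to 32712 and 2901 to 9235 CPM, while osteocalcin (Bglap), whose promoter drives Cre, ran from 0 to 83.6 CPM. Kdm2b, the targeted gene, had a mean of 45.8 ± 16.1 CPM (SD, n = 3) in CKO-YOUNG against 40.5 ± 17.9 in CON-YOUNG, and of 36.3 ± 18.2 in CKO-OLD against 28.2 ± 7.89 in OLD. Reads summed over the gene do not check the loss of 1 domain.

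Tcfl5 was highest in the knockout libraries and lowest in the old groups without the knockout. In CKO-YOUNG it stood at 46.8, 50.7 and 51.2 CPM in libraries 1, 2 and 3. They rest on 2770 to 3512 counts each and lie close together, with an SD of 4.83% of the mean. In CKO-OLD it stood at 16.6, 11.9 and 11.9 CPM. Library 1 was the highest of the group, and no CKO-OLD library reached the level of a CKO-YOUNG library. In CON-YOUNG the values were 7.15, 7.35 and 1.85 CPM. Here libraries 1 and 2 were near each other and library 3 was far below them, the widest spread of any group (57.3% of the mean). In YOUNG Tcfl5 was at 4.4, 3.13 and 4.69 CPM, values that overlapped those of CON-YOUNG. CON-OLD-iBP held 1.11, 1.56 and 1.66 CPM and OLD 0.971, 1.15 and 1.37 CPM. These groups overlapped, and every library of both was below every YOUNG library. The lowest value, in OLD 1, rests on 67 counts, which alone allow 0.752 to 1.23 CPM (exact Poisson 95% interval, counting error only). In these cultures, fewer cells that make a transcript and less of it per cell cannot be told apart.

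**Figure D2:**
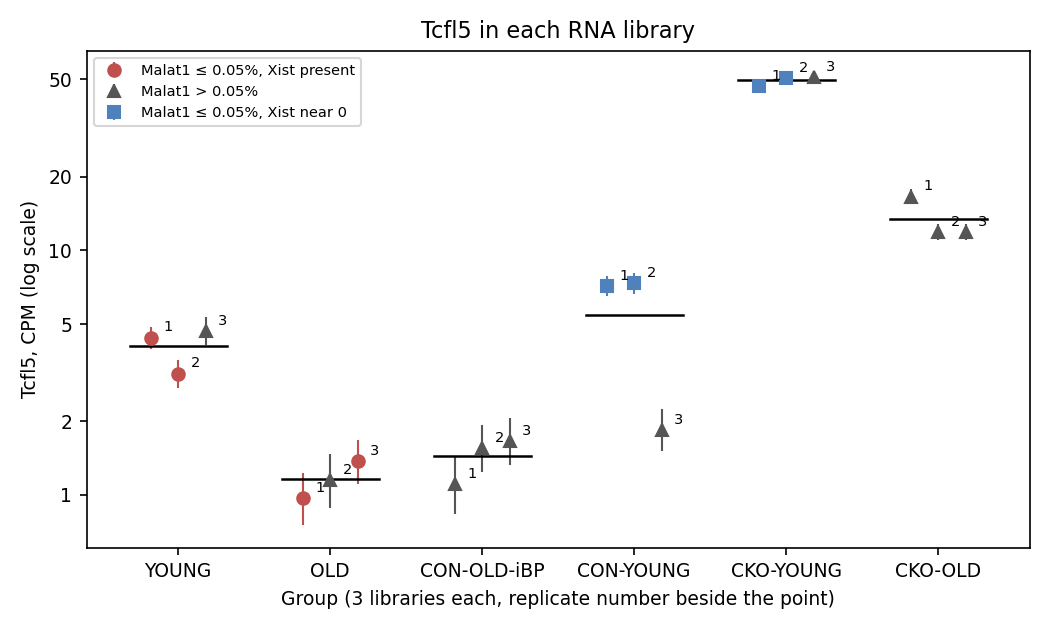
Tcfl5 in CPM (vertical axis, log scale) in each of the 18 libraries by group (horizontal axis); numbers are replicates, horizontal bars group means, vertical bars exact Poisson 95% intervals of the counts, and colour and shape the Malat1 share and Xist. The 6 knockout libraries sit at 11.9 CPM or more and the other 12 at 7.35 CPM or less.

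In order of group means, Tcfl5 was at 49.6 ± 2.39 CPM in CKO-YOUNG, 13.5 ± 2.72 in CKO-OLD, 5.45 ± 3.12 in CON-YOUNG, 4.07 ± 0.829 in YOUNG, 1.44 ± 0.293 in CON-OLD-iBP and 1.16 ± 0.202 in OLD (SD, n = 3 each). Neighbours in that order were separate, library by library, except CON-YOUNG with YOUNG and CON-OLD-iBP with OLD. From the lowest to the highest library the gene spanned 52.8-fold. The lowest knockout library (11.9 CPM) was 1.62 times the highest of the other 12 (7.35 CPM). Over the whole table, 82 of 16566 genes tested (0.495%) had all 6 knockout libraries above all 12 others, and Tcfl5, chosen on 4 of the 6 groups, was among them. Only 0.0121% of genes lay below in all 6. Of the genes that lay above, Tcfl5 was not among the 12 with the widest gap. Tmem132e, a membrane protein gene, was at 4.56 CPM or more in the knockout libraries and at 0.141 or less in the others, and Foxl2, an ovarian transcription factor, at 2.09 or more and 0.364 or less.

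Tcfl5 was higher in the knockout at both ages, which the choice of the gene fixes. In young cells the fitted log2 fold change was 3.18, or 9.09-fold, in a contrast in which 0.127% of genes tested passed an edgeR adjusted p of 0.05 (21 genes, and 10 with the replicate number as a block). In old cells it was 3.53, or 11.6-fold, where 0.00604% passed, a single gene. The young ratio was uneven between libraries. CKO-YOUNG over CON-YOUNG was 6.55 for libraries 1, 6.89 for libraries 2 and 27.7 for libraries 3. The knockout level was nearly the same in all 3, so the ratio follows the low control value of CON-YOUNG 3. Within set 2 the log2 fold change was 2.75, and for libraries 3 alone 4.79, with 1 library a side. In old cells the 9 ratios of a CKO-OLD to an OLD library ran from 8.67 to 17.1. Against OLD 2, the only OLD library of set 3, the log2 fold change was 3.55. CKO-OLD over CON-OLD-iBP, whose libraries are also of set 3 and were not used in choosing the gene, gave ratios of 7.16 to 14.9. No test is given for these, since CKO-OLD was chosen as high. Macrophage markers, 12 genes of which none was at 0 throughout a group, summed to 127 to 842 CPM in CKO-YOUNG against 175 to 422 CPM in CON-YOUNG. Their sum was 1181 to 5164 CPM in CKO-OLD against 1240 to 9586 CPM in OLD, with 12 of 12 lower. By edgeR 0 passed there, with 4 at an unadjusted p under 0.05, 1 called by DESeq2 and 12 by limma-voom. The 7 osteoclast markers summed to 121 to 336 CPM in CKO-OLD against 239 to 2177 CPM in OLD, with 7 of 7 lower (0, 6, 2 and 7 in the same order). Over all genes the last 3 shares were 8.16%, 1.18% and 41.2%. The part of these markers in the result was not tested.

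Genes positive in both knockout contrasts were ordered by the larger of their p-values, and Tcfl5, picked for this, came first. Of all genes tested, 4092 (24.7%) were positive in both. Next in that order came Nrbp2, a pseudokinase gene, at 10.9 and 60.8 CPM in CON-YOUNG and CKO-YOUNG and 6.68 and 34.4 CPM in OLD and CKO-OLD (means, n = 3). Tmem132e followed at 0 and 22 CPM and at 0 and 8.95 CPM. Mafa, a transcription factor of pancreatic beta cells, stood at 0.767 and 11.7 CPM and at 0.713 and 3.96 CPM. Prob1 was at 1.44 and 6.63 CPM and at 1.19 and 5.63 CPM, and Caskin1, a synaptic scaffold gene, at 0.713 and 6.68 CPM and at 0.702 and 5.28 CPM. Tcfl5 had the widest step between CKO-YOUNG and CKO-OLD of these 6 genes, and Prob1 and Caskin1 had the narrowest.

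The old knockout effect minus the young was 0.34 on the log2 scale. Both effects chose the gene, so this is a description with no test. CON-YOUNG 3 moved the value: without it the difference was 0.76, and within set 3, where it is the only CON-YOUNG library, -1.24. OLD and CON-YOUNG are of different mouse lines, which cannot be told apart from age here.

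Tcfl5 stood lower in old than in young libraries, with and without the knockout, and only the knockout difference passed the edgeR adjustment. Between OLD and YOUNG, 0.971 to 1.37 against 3.13 to 4.69 CPM, it was lower by a log2 fold change of -1.80 (SE 0.39, 95% interval -2.64 to -0.97), a 3.49-fold difference. It did not pass the adjustment over all genes (edgeR adjusted p = 0.74), and passed in 0 of 6 edgeR fits that left out 1 library. In this contrast edgeR called 0% of genes, with 554 (3.34%) at an unadjusted p under 0.05. DESeq2 called 43 genes (0.235%) and limma-voom 1125 (6.79%), Tcfl5 among them with adjusted p of 0.00763 and 0.00423. The marker counts below are to be read against these shares. Within set 1, YOUNG 1 and 2 against OLD 1 and 3, the log2 fold change was -1.68 (adjusted p = 0.0365), and in set 3, YOUNG 3 against OLD 2, -2.03 (1 library a side). The low level of OLD entered the choice of the gene, which favours a lower value here, so these p-values are not independent of that choice. The 7 osteoclast markers summed to 173 to 230 CPM in YOUNG and 239 to 2177 CPM in OLD, and the 10 osteoblast markers to 44571 to 54213 and 30398 to 38623 CPM, without overlap. The 12 macrophage markers summed to 3370 to 13757 and 1240 to 9586 CPM, which overlap. By edgeR 0 markers of these lists passed, with 6, 3 and 0 at an unadjusted p under 0.05, 2, 0 and 0 called by DESeq2 and 6, 6 and 0 by limma-voom. Their part in the difference was not tested.

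Between CKO-OLD and CKO-YOUNG, Tcfl5 fell by 1.88 on the log2 scale (SE 0.39, 95% interval -2.70 to -1.06, edgeR adjusted p = 0.0419), a 3.68-fold lower level. This contrast called 0.7% of genes (0.338% higher and 0.362% lower). Over all genes, 24.5% had an unadjusted p under 0.05, and DESeq2 called 12.5% and limma-voom 51.5%, shares against which the marker counts below are to be read. The call also held in DESeq2 (0.000242), in limma-voom (1.1e-06), with only these groups fitted (0.0097), with other size factors (0.0462), with no filter (0.0461) and without CKO-YOUNG 3 (0.0172). It was lost without CKO-OLD 1, 2 or 3 or without CKO-YOUNG 1 or 2 (adjusted p of 0.125 to 0.173), with the replicate number as a block (0.0512) and with a term for library set (log2 fold change -1.41, adjusted p = 0.17). CKO-OLD is all of set 3 and CKO-YOUNG 1 and 2 of set 2. Within set 3, CKO-YOUNG 3 against CKO-OLD, it was -1.93, with 1 library on the young side. The values of both groups entered the choice of the gene, so the test is not independent of it. Bglap, the gene whose promoter drives Cre, was higher in CKO-OLD (58.8 against 0.153 CPM, means, n = 3, edgeR adjusted p = 0.0389). It is 1 of 10 osteoblast markers, of which 5 were higher and 5 lower, with a median log2 fold change of 0.06. The 10 summed to 29036 to 40510 CPM in CKO-OLD against 36777 to 49896 CPM in CKO-YOUNG, which overlap. By edgeR 2 of them passed, both higher, with 5 at an unadjusted p under 0.05, 3 called by DESeq2 and 6 by limma-voom. Of the 12 macrophage markers 0 passed edgeR (8 at an unadjusted p under 0.05, 8 called by DESeq2 and 11 by limma-voom), with sums of 1181 to 5164 against 127 to 842 CPM. The 4 pericyte markers summed to 1118 to 1504 CPM in CKO-OLD against 3714 to 5304 CPM in CKO-YOUNG (0 passed edgeR, 3 at an unadjusted p under 0.05, 3 called by DESeq2 and 3 by limma-voom). The 6 adipocyte and stroma markers summed to 131 to 260 against 399 to 624 CPM (0 passed edgeR, 1 unadjusted, 1 by DESeq2, 3 by limma-voom). Their part in the difference was not tested.

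The age differences with and without the knockout come from separate libraries, and 3 of the 4 groups entered the choice of the gene. The knockout one minus the other, a contrast chosen after seeing the data, was -0.08 on the log2 scale (SE 0.55, 95% interval -1.24 to 1.09, edgeR adjusted p = 0.973), an interval that still holds more than 1 log2 unit either way. By edgeR 0% of genes were called in it, with 1993 at an unadjusted p under 0.05, 286 called by DESeq2 and 5664 by limma-voom.

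No difference in Tcfl5 was detected between CON-OLD-iBP and OLD. The fit gave a log2 fold change of 0.31 (SE 0.39, 95% interval -0.51 to 1.13, edgeR adjusted p = 0.67), in a contrast that called 0.0241% of genes (0.0121% in each direction). OLD is of another mouse line and was chosen as low. In the contrast of CON-OLD-iBP against YOUNG, groups that had no part in choosing the gene, Tcfl5 was lower by -1.49 (SE 0.39, 95% interval -2.32 to -0.67), or 2.82-fold. It missed the threshold (edgeR adjusted p = 0.0715), as did all genes tested. By edgeR 0% were called, with 3176 (19.2%) at an unadjusted p under 0.05, against 1403 (9.04%) by DESeq2 and 4889 (29.5%) by limma-voom. The marker counts below are to be read against these shares. Tcfl5 passed in DESeq2 (adjusted p = 0.00821), in limma-voom (0.0353) and without YOUNG 3 (-1.41, adjusted p = 0.0469). That was 1 of 6 fits that left out 1 library, and the highest adjusted p among them was 0.282. By edgeR it also missed the threshold with other size factors (0.0781), with no filter (0.0835) and with the replicate number as a block (0.0936). The same held with only these groups fitted (0.156) and with a term for library set (0.364). All CON-OLD-iBP libraries are of set 3 and held Ddx3y, whereas YOUNG 1 and 2 held Xist with Ddx3y at 0, and age, line and iBP cannot be told apart in it. Within set 3, against YOUNG 3 alone, the log2 fold change was -1.70. Macrophage markers summed to 482 to 840 CPM in CON-OLD-iBP against 3370 to 13757 CPM in YOUNG, with 12 of 12 lower (0 passed edgeR, 12 at an unadjusted p under 0.05, 11 called by DESeq2 and 12 by limma-voom). Osteoblast markers summed to 15546 to 33216 against 44571 to 54213 CPM, with 10 of 10 lower (0 passed edgeR, 6 unadjusted, 5 by DESeq2, 5 by limma-voom). Their part in the difference was not tested.

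No difference in Tcfl5 was detected between the young groups without the knockout. CON-YOUNG against YOUNG gave 0.42 (SE 0.38, 95% interval -0.38 to 1.22, edgeR adjusted p = 0.536), where 5.55% of genes were called (1.72% higher and 3.83% lower). Its sign follows the libraries compared: without CON-YOUNG 3 it was 0.83 (adjusted p = 0.0317), and between CON-YOUNG 3 and YOUNG 3, both of set 3, -1.34 with 1 library a side.

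**Figure D3:**
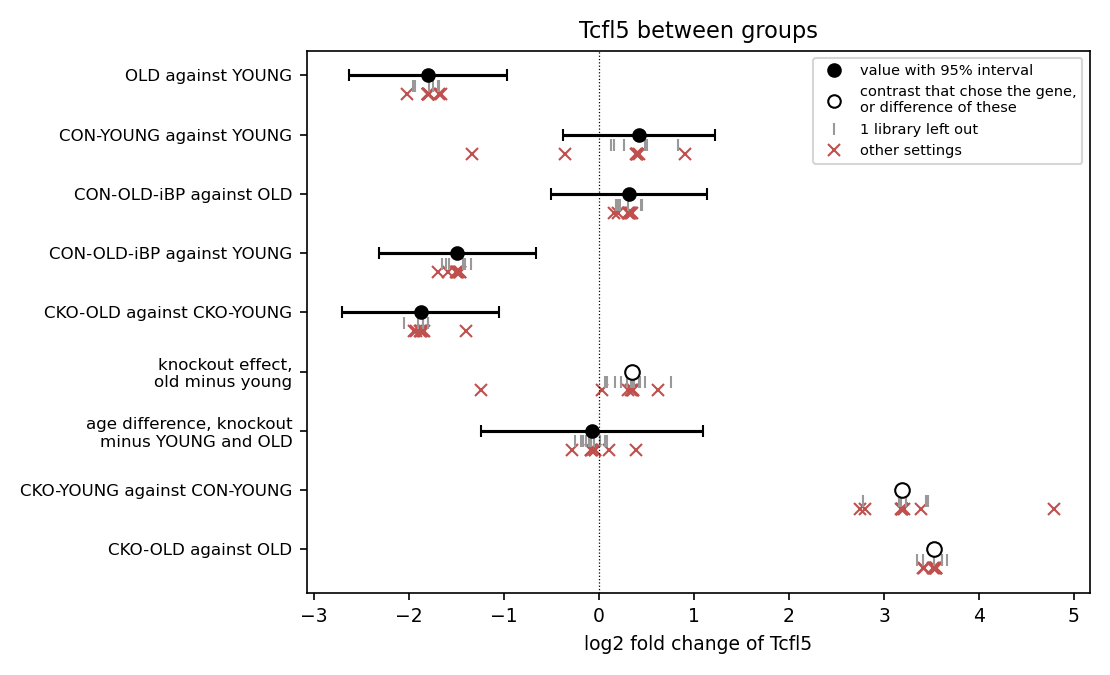
Log2 fold change of Tcfl5 (horizontal axis) in each comparison (vertical axis): filled circles with 95% intervals are tested, open circles are the contrasts that chose the gene and the difference between them, grey ticks leave out 1 library and red crosses are other settings. The 3 comparisons of old with young or YOUNG cells lie between -1.88 and -1.49, and the other tested intervals span 0.

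Genes of the testis programme in which Tcfl5 is known were mostly low or silent in these cells. Of 52 germ cell and meiosis genes, 30 were tested and 0 passed edgeR in any of 9 contrasts. In the knockout contrasts, 1 had an unadjusted p under 0.05 in young cells and 1 in old, DESeq2 called 0 in each, and limma-voom called 1 and 9. Over all genes the unadjusted shares were 5.48% and 8.16%, those of edgeR 0.127% and 0.00604%, those of DESeq2 1.32% and 1.18%, and those of limma-voom 3.01% and 41.2%. Their median log2 fold change was 0.03 in CKO-YOUNG against CON-YOUNG (15 of 30 positive; -0.01 over all genes tested) and 0.10 in CKO-OLD against OLD (17 of 30; -0.01 over all genes). Of the 52, 33 stayed under 1 CPM in every library. Mybl1, a transcription factor that drives the meiotic stage of spermatocytes, was at 8.02 and 9.25 CPM in CON-YOUNG and CKO-YOUNG and at 7.59 and 7.08 CPM in OLD and CKO-OLD (means, n = 3). Ythdc2, an RNA helicase needed to enter meiosis, was at 20.7 and 19.9 CPM and at 13.6 and 13.8 CPM in the same order. Crem, a regulator of late sperm genes, was at 7.23 and 8.01 CPM and at 15.8 and 17.5 CPM. The 6 germ cell markers Dazl, Ddx4, Sycp3, Sycp1, Piwil1 and Stra8 summed to 0.788 to 1.69 CPM in CKO-YOUNG and 0.969 to 2.21 CPM in CON-YOUNG. Piwil1 and Stra8 were at 0 in all libraries of both groups. Ddx4 was at 0 in CKO-YOUNG and at a mean of 0.0484 CPM in CON-YOUNG.

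Among other basic helix-loop-helix factors, 57 of 72 were tested and 0 passed in either knockout contrast, with a median of -0.07 in young cells (-0.01 over all genes) and 0.10 in old (-0.01 over all genes). Unadjusted p was under 0.05 for 1 and 5 of them, and DESeq2 called 0 in each and limma-voom 0 and 30. Over all genes the unadjusted shares were 5.48% and 8.16%, and those of limma-voom 3.01% and 41.2%. Those of edgeR were 0.127% and 0.00604%, and those of DESeq2 1.32% and 1.18%. In CON-YOUNG against YOUNG, where 5.55% of all genes were called, 4 of the 57 passed, 1 higher and 3 lower. Mitf, a factor of osteoclasts and pigment cells, and the blood factors Tal1 and Lyl1 were lower (log2 fold changes of -1.79, -6.01 and -3.45), and Tcf3, a broad partner of this class, was higher (0.90). Their edgeR adjusted p ran from 0.0141 to 0.0476. The 12 macrophage markers summed to 175 to 422 CPM in CON-YOUNG and 3370 to 13757 in YOUNG, and their part in this was not tested. Mitf was also higher in CKO-OLD than in CKO-YOUNG (1.82, adjusted p = 0.0253), against the direction of Tcfl5. All 15 subunits of PRC1.6, a Polycomb complex known for keeping germ cell genes silent, were tested. Only Cbx3, a heterochromatin protein, passed by edgeR, and only in CON-YOUNG against YOUNG (0.65, adjusted p = 0.0183), where 5.55% of all genes did. In CKO-OLD against CKO-YOUNG 8 of the 15 had an unadjusted p under 0.05, and DESeq2 called 1 and limma-voom 10 (24.5%, 12.5% and 51.5% over all genes). In the same order, CKO-OLD against OLD gave 0, 0 and 6 (8.16%, 1.18% and 41.2%). CKO-YOUNG against CON-YOUNG gave 1, 0 and 0 (5.48%, 1.32% and 3.01%).

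The genes beside Tcfl5 on chromosome 2 had no call by edgeR or DESeq2 in the knockout contrasts, where both called few genes at all. Of the 10 on each side in the RefSeq table, used for gene order alone, 14 were in the counts, 7 were tested, and 0 passed edgeR in any of the 9 contrasts. In the knockout contrasts unadjusted p was under 0.05 for 1 in young cells and 0 in old, and DESeq2 called 0 in each and limma-voom 0 and 3. Over all genes the unadjusted shares were 5.48% and 8.16%, and those of limma-voom 3.01% and 41.2%. Those of edgeR were 0.127% and 0.00604%, and those of DESeq2 1.32% and 1.18%. At such shares, 0 of 7 by edgeR or DESeq2 says little about these genes. Dido1, the next gene beyond the start of Tcfl5, was at 69.5 and 71.4 CPM in CON-YOUNG and CKO-YOUNG and 44.9 and 45.4 CPM in OLD and CKO-OLD (means, n = 3). Gid8, a ubiquitin ligase subunit gene, was at 51.5 and 52.9 CPM and at 50.9 and 51.4 CPM. On the other side Ogfr was at 88.6 and 90.7 CPM and at 67.4 and 84.8 CPM. Slc17a9, a vesicle nucleotide transporter gene, was at 2.72 and 0.721 CPM and at 4.19 and 2.56 CPM (log2 fold changes of -1.91 and -0.71). Slco4a1, an organic anion transporter gene, was at 10.8 and 3.59 CPM and at 61.1 and 99.6 CPM (-1.59 and 0.70). In young cells both lay opposite to Tcfl5 in sign. Col9a3, a cartilage collagen gene, shares 237 bases with the 20736 of Tcfl5 in that table, and whether the counting used strand is not given in the sources used here. Col9a3 was at 82.1 CPM in YOUNG 3, 56.7 in CON-OLD-iBP 1 and 33.8 in CKO-OLD 3, and Tcfl5 in those libraries was at 4.69, 1.11 and 11.9 CPM. In CKO-YOUNG, where Tcfl5 was highest, Col9a3 was at 0.795, 0.212 and 2.12 CPM.

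The genes whose pattern lay closest to that of Tcfl5 were found from the root mean square difference of log2 CPM over the 18 libraries, each gene centred on its own mean. A gene with no change at all would lie 1.90 log2 units from Tcfl5, the median gene lay at 1.98, and 20 genes lay within 1. The closest were Itpka, an inositol trisphosphate kinase (0.84), Ppp1r14a, an inhibitor of myosin phosphatase (0.87), and Adrb3, an adrenergic receptor (0.91). Mafa, Trank1 and Epop, the last a Polycomb PRC2 partner, lay at 0.92 each, and the midbrain factor En2 and the cadherin Celsr2 at 0.94. Ppp1r14a kept the order of Tcfl5 among the young groups with more even steps, with 2.07, 7.73 and 24.7 CPM in YOUNG, CON-YOUNG and CKO-YOUNG, and 1.13, 1.56 and 8.39 CPM in OLD, CON-OLD-iBP and CKO-OLD (means, n = 3). Epop stood at 6.84, 18.9 and 62.4 CPM and at 8.78, 5.05 and 26.2 CPM in the same order, and so lacked the step between YOUNG and OLD. Itpka and En2 stayed under 0.16 CPM in every library without the knockout, where 1 or a few counts set the value. With a smaller prior count of 0.5, 5 of the 8 were again among the 8 closest, with Pearson correlation 3 and with Spearman correlation 0, so the list depends on the measure. The knockout libraries weigh heavily in it, and Tcfl5 was chosen for them.

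**Figure D4:**
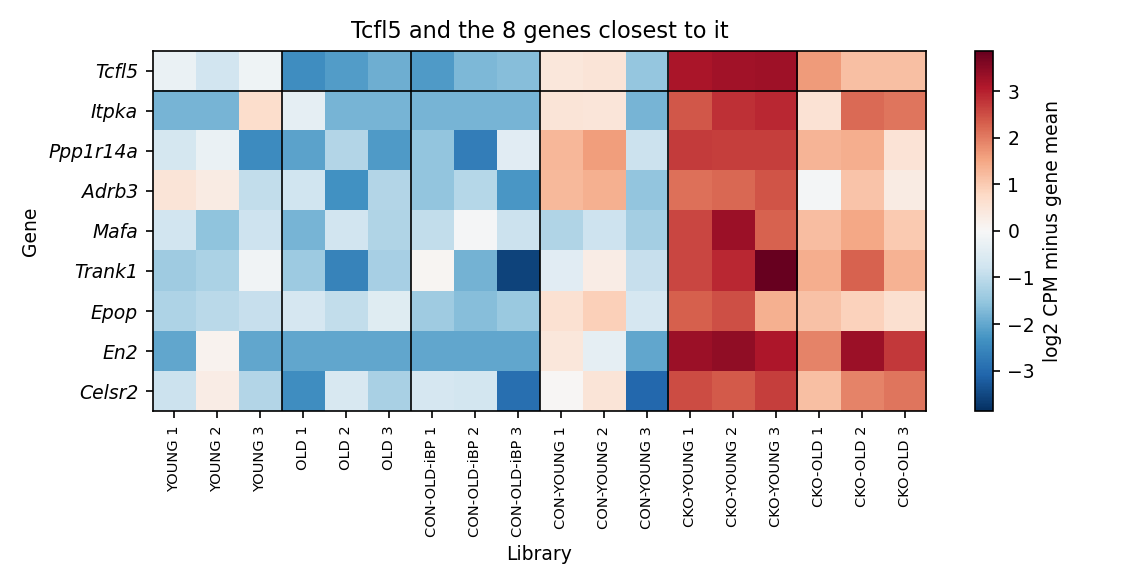
Log2 CPM of Tcfl5 and the 8 genes closest to it (rows) in the 18 libraries (columns), each gene minus its own mean, red above and blue below. For all 9 genes the highest library is 1 of CKO-YOUNG, and CON-YOUNG 3 lies below CON-YOUNG 1 and 2.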

How the data were processed

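RNA of 18 libraries was sequenced. The deposited values are raw counts, 1 column a library, with no normalization. The submitters' processing notes name FastQC, Trim Galore, HISAT2 and mm39. Tool versions, counter, annotation and strand were not given in the sources used here. Of 26264 symbols, 24964 matched a table of gene names. Groups and replicate numbers come from the titles. Genes were filtered with filterByExpr (minimum count 10, minimum total 15), which kept 16566, normalized by TMM and fitted by quasi-likelihood in edgeR (robust, 1 coefficient per group over 18 libraries, 12 residual degrees of freedom, two-sided, Benjamini-Hochberg over all genes, threshold 0.05). The SE is the log2 fold change over the root of F. Log2 CPM used a prior count of 2; 1 count is worth 0.0127 to 0.0203 CPM. DESeq2 1.42.0, edgeR 4.0.16 and limma 3.58.1 ran in R 4.3.3, with figures from matplotlib 3.10.9 in Python 3.11.15. The edgeR fit was also run on simulated counts with changes set in OLD alone. Those counts had a smaller common spread than the data and no library sets, so that run does not test the fit under either.

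Tcfl5, the gene lists, the library sets (Malat1 share above 0.05% or not, the rest parted by group label) and the alternatives were chosen with earlier results of these data known. Alternatives were DESeq2, limma-voom, other size factors, no filter, fewer groups, a replicate block, library set and leaving out each library. Wherever limma-voom is named, it was run with quality weights for the libraries. Deviations of same-numbered libraries from group means were correlated only for the pairs of groups set against each other in the contrasts. They correlated at 0.146 to 0.31 in CON-YOUNG with YOUNG and CKO-YOUNG with CON-YOUNG. In no other pair computed were all 3 correlations above 0.1. The pairing comes from the numbers in the titles, and in both pairs named libraries 3 are of set 3. Named genes are the 8 closest to Tcfl5, the 5 next in both knockout contrasts, and list members past the threshold, or else of high level. Dido1, Gid8, Ogfr, Slc17a9, Slco4a1, Bglap, Col9a3, Mybl1, Crem, Piwil2, Tex15, Tcf3, Foxl2 and the marker genes given were chosen after their values were seen. The rankings leave out predicted symbols, Y-linked genes and Xist.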

Additional observations from a re-analysis of the deposited data

How the results depend on the processing

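In the contrasts that chose the gene, log2 fold changes ran from 2.77 to 3.46 (young) and 3.35 to 3.67 (old) when 1 library was left out, and the young value was 4.79 within set 3 alone. Leaving out 1 library gave -1.96 to -1.69 for OLD against YOUNG, 0.13 to 0.83 for CON-YOUNG against YOUNG, 0.18 to 0.45 for CON-OLD-iBP against OLD, -1.65 to -1.35 for CON-OLD-iBP against YOUNG, -2.06 to -1.80 for CKO-OLD against CKO-YOUNG, 0.06 to 0.76 for the knockout effect between ages and -0.25 to 0.083 for the age differences. OLD against YOUNG passed in DESeq2 (-1.80), limma-voom (-1.67) and within set 1 (-1.68), and CON-OLD-iBP against YOUNG in DESeq2 (-1.47) and limma-voom (-1.51). CON-YOUNG against YOUNG passed in limma-voom (0.90) and turned to -0.36 with a set term and -1.34 within set 3. CKO-OLD against CKO-YOUNG lost its call with a set term (-1.41) and with the replicate number as a block (-1.89, adjusted p = 0.0512); the block changed no other call of Tcfl5. The knockout effect between ages turned to -1.24 within set 3. The age differences turned to 0.39 with a set term and 0.10 within set 3. The cause of these changes was not tested, beyond the lone libraries that set 3 leaves. Of 140 alternative values, 115 kept their direction and call or, in the contrasts that chose the gene, lay within 1 SD. The knockout effect between ages was counted here by its call, although no test of it is given above.

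Counts over all genes moved more. By edgeR, DESeq2 and limma-voom the calls were 919, 2095 and 7537 for CON-YOUNG against YOUNG, 4, 2089 and 6663 for CON-OLD-iBP against OLD, 116, 2042 and 8538 for CKO-OLD against CKO-YOUNG, 21, 237 and 499 for CKO-YOUNG against CON-YOUNG, and 1, 193 and 6820 for CKO-OLD against OLD. Leaving out 1 library gave 0 to 2924, 0 to 1346, 0 to 2655, 2 to 23 and 0 to 48. OLD libraries rest on 65 to 92 counts of Tcfl5.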
